A study of Mus musculus with 12 samples.

Results

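The genes described are 10 genes of the integrated stress response and the unfolded protein response, chosen by name: *Atf4*, *Atf5*, *Atf6*, *Ddit3*, *Trib3*, *Chac1*, *Asns*, *Xbp1*, *Herpud1* and *Ppp1r15a*. All 10 were found by symbol among the 15651 genes of the expression table. RNA-seq was performed on c-Kit+ leukemic splenocytes, enriched with CD117 beads from moribund mice with AML. The Mx1Cre transgene expresses Cre from an interferon-responsive promoter, which is active in blood-forming cells. *D/F* mice carried Dnmt3afl/fl, Flt3ITD/ITD and Mx1Cre, and *T/F* mice carried Tet2fl/fl, Flt3ITD/ITD and Mx1Cre, on a C57BL6/J background, with 3 mice of each genotype. The homozygous *Flt3* internal tandem duplication and the Mx1Cre transgene were thus shared by every group. Cre was not induced, and the floxed alleles were lost through spontaneous Mx1Cre activity, so that 1 or both alleles may be deleted in a given cell. Ages of these mice were not given in the sources used here. Cells of each mouse were split between DMSO and CCS1477 (inobrodib), which binds the bromodomains of the histone acetyltransferases p300 and CBP, for 6 hours in medium with serum, SCF, IL-6 and IL-3. The dose was 4 μM for *D/F* cells and 2 μM for *T/F* cells, so genotype and dose cannot be told apart wherever the responses are compared. This gave 12 libraries in 4 groups of 3, named here by genotype, treatment and replicate, where a replicate number stands for 1 mouse.

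The integrated stress response begins with kinases that phosphorylate the translation factor eIF2, which lowers overall protein synthesis while favoring translation of the *Atf4* mRNA. ATF4 protein then switches on genes for amino acid supply, redox balance and, under lasting stress, cell death. The unfolded protein response joins this arm to a pair of others that start in the endoplasmic reticulum (ER): IRE1 splices the *Xbp1* mRNA, and ATF6 is cut from the membrane to become a transcription factor, and both raise chaperones and the machinery of ER-associated degradation. Immature myeloid cells make large amounts of granule proteins in the ER, and these pathways are known for keeping such secretory cells alive. Because ATF4, XBP1 and ATF6 are controlled largely by translation, splicing or cleavage, gene-level RNA does not measure their activity, and the table does not separate spliced from unspliced *Xbp1*.

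Over both genotypes *Xbp1* and *Herpud1* fell and *Ddit3* rose in the unpaired test. When the cells of each mouse were paired, *Ddit3* did not pass (adjusted p = 0.0715, limma), and the ATF4 targets *Chac1*, *Trib3* and *Asns*, which had not passed unpaired over both genotypes, rose. Of 49 other ATF4 and CHOP targets, 11 rose and 23 fell in this paired fit, against 34.5% and 25.9% of all genes. *Xbp1* and *Herpud1* were lower with CCS1477 in all 6 mice, with fitted falls to 0.485-fold and 0.598-fold of DMSO over both genotypes. *Chac1*, *Trib3*, *Asns* and *Atf5* were higher in all 6 mice, with fitted ratios of 1.94, 1.49, 1.20 and 1.10. The *Atf4* ratio was 1.00, with individual mice on either side of it. Across all genes tested, 31.8% were higher and 24.2% were lower in all 6 mice, so a shared direction alone was common in these libraries.

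Values are TPM, a length-normalized share of a library's transcripts that can be compared between genes. The number of reads behind each value cannot be recovered from TPM, and in bulk RNA fewer cells of a type cannot be told apart from less RNA per cell. Differences were tested with limma on log2(TPM + 1), and a gene passed at a Benjamini-Hochberg adjusted p under 0.05 over all genes tested. Fold changes on this scale understate changes of genes with low TPM. The comparison was unpaired. A paired fit with the mouse as a block is given beside it where it changes a call of a member or, over both genotypes, a count of a pathway list. All 10 genes cleared the filter of a mean of 1 TPM in at least 1 group compared.

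*D/F* replicate 2 stood apart from the other mice, in both treatments, and the 10 genes took part in this. Across genes its correlation with libraries of its own group was 0.947 to 0.958, whereas the other pairs within a group reached up to 0.991. In DMSO it had the lowest level of the 6 mice for 9 of the 10 genes, against 17.6% of all genes, and the highest for *Ppp1r15a*, as for 50.7% of all genes. With CCS1477 it was lowest for 6 of the 10, against 22.9% of all genes, and highest for *Ddit3* and *Ppp1r15a*, against 47.9%. Its levels in DMSO were 29.9% of the median of the other 5 mice for *Trib3*, 31.7% for *Chac1*, 42.4% for *Atf4* and 55.4% for *Xbp1*. The same cells had the lowest *Mpo* (1163 TPM against 1244 to 3673 TPM) and *Elane* (454 TPM against 561 to 2480 TPM), 2 granule genes, and the highest *Cd34* (447 TPM against at most 201 TPM) and *Kit* (149 TPM against 50.5 to 67.0 TPM) in DMSO. Whether the makeup of these cells had a part in their low stress gene levels was not tested.

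All 9 progenitor markers were listed, led by *Mpo*, although the pan-leukocyte gene *Ptprc* was listed at only 0.826 to 3.11 TPM. In *D/F* cells their summed level was 4032 to 10354 TPM with DMSO and 883 to 4341 TPM with CCS1477. In *T/F* cells the sum was 4406 to 6626 TPM and 1757 to 3086 TPM, and it was lower with the drug in each of the 6 mice, by 2.39 to 4.56 times in *D/F* and 2.15 to 2.51 times in *T/F*. The granule genes *Mpo*, *Elane*, *Prtn3* and *Ctsg* made up most of it, so it mainly follows these genes. *D/F* replicate 2 had the lowest sum in DMSO with the highest *Kit*, *Cd34* and *Myb*. *Kit*, *Cd34*, *Flt3* and *Myb* also fell in all 6 mice, whereas *Ptprc* rose in every *D/F* mouse and fell in every *T/F* mouse. The 8 mature neutrophil markers summed to 1669 to 9446 TPM, lower with CCS1477 in 2 of 3 mice of each genotype. Sums of 6 of 7 monocyte and macrophage markers, without *C1qa*, were also lower in all 6 mice, from 453 to 1261 TPM with DMSO to 168 to 586 TPM with CCS1477 in *D/F* and from 359 to 538 TPM to 189 to 292 TPM in *T/F*. So were those of 4 of 6 mast cell and basophil markers, without *Fcer1a* and *Tpsb2* (47.7 to 258 TPM with DMSO, 30.4 to 63.7 TPM with CCS1477), and of 5 of 6 dendritic cell markers, without *Cd209a* (47.2 to 116 TPM and 31.7 to 62.5 TPM). The 5 of 6 erythroid markers listed, without *Hba-a1*, summed to 10.8 to 31.5 TPM and were lower in all 6 mice, and 4 of 7 T and NK cell markers, without *Cd3e*, *Cd3g* and *Ncr1*, summed to 13.8 to 28.1 TPM and were lower in 5 of 6. The part of these shifts in the responses given here was not tested. Plasma cells, in which *Xbp1* and *Herpud1* are abundant, were represented by 4 of 8 markers, with *Jchain*, *Mzb1*, *Tnfrsf17* and *Iglv1* not listed and a sum of 5.70 to 20.3 TPM. This sum was lower with CCS1477 in 3 of 3 *D/F* mice and 2 of 3 *T/F* mice, and its part in the falls of *Xbp1* and *Herpud1* was not tested. *Tet2* was lower in *T/F* than in *D/F* within each treatment (30.0 to 35.8 TPM against 38.3 to 43.4 TPM in DMSO), whereas the *Dnmt3a* ranges of the genotypes overlapped. In DMSO, *D/F* replicates 1 to 3 had 29.3, 55.7 and 33.1 TPM of *Dnmt3a*, against 39.9 to 53.9 TPM in *T/F*. With CCS1477 they had 40.8, 49.6 and 43.4 TPM, against 49.1 to 57.2 TPM. The overlap came from *D/F* replicate 2, and the other *D/F* mice lay below every *T/F* mouse in each treatment.

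In DMSO the 10 genes spanned a wide range of levels. *Atf4* was the most abundant at 326 ± 106 TPM (SD, n = 6 mice), followed by *Xbp1* at 269 ± 81.0 TPM. *Herpud1* at 115 ± 13.3 TPM, *Asns* at 96.5 ± 29.2 TPM and *Atf5* at 63.7 ± 23.4 TPM came next, and *Atf6* at 29.5 ± 3.69 TPM and *Ddit3* at 25.7 ± 4.02 TPM were lower. *Trib3* at 16.4 ± 9.26 TPM, *Chac1* at 15.0 ± 8.13 TPM and *Ppp1r15a* at 10.8 ± 2.02 TPM were the least abundant. Neighbors in this order overlapped within 1 SD except between *Xbp1* and *Herpud1* and between *Atf5* and *Atf6*. With CCS1477 the order of the middle genes changed: *Xbp1* was 129 ± 31.1 TPM, *Asns* was 117 ± 37.9 TPM, *Herpud1* was 68.4 ± 8.70 TPM and *Chac1* was 30.2 ± 16.0 TPM, while *Atf4* was 323 ± 98.6 TPM.

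**Figure D1:**
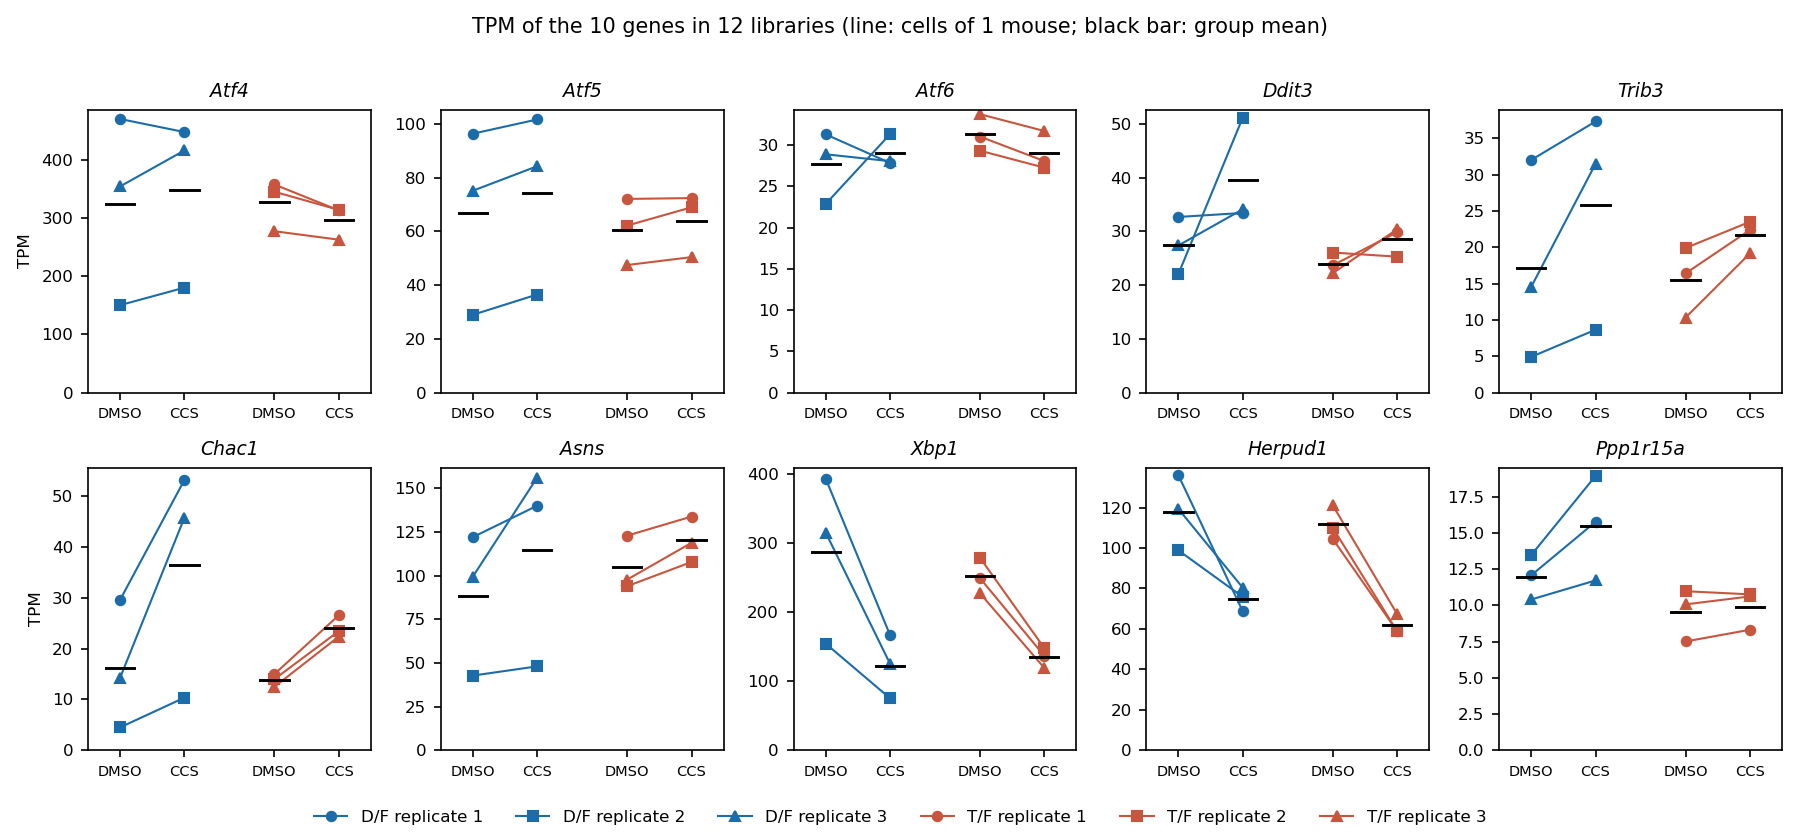
TPM (y axis, linear, from 0) of the 10 genes in 12 libraries, with DMSO and CCS1477 (CCS) on the x axis. Each line joins the cells of 1 mouse (*D/F* blue, *T/F* red), and black bars are group means. The *Xbp1* and *Herpud1* lines fall in all 6 mice, the *Chac1* lines climb in all 6, and *D/F* replicate 2 (blue squares) lies lowest for *Atf4*, *Atf5*, *Trib3*, *Chac1*, *Asns* and *Xbp1* in both treatments.

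Of the 10 genes, 0 passed in *D/F* with limma, where 11.6% of all genes passed and 2 of the 10, *Xbp1* and *Herpud1*, had an unadjusted p under 0.05. By the same test 3 passed in *T/F*, where 43.4% passed. Over both genotypes 3 passed, against 45.3% of all genes. With the mouse as a block, 3 passed in *D/F* against 39.3% of genes, 5 in *T/F* against 54.1%, and 5 over both genotypes against 60.3%. Without *D/F* replicate 2, 2 passed in *D/F* against 24.6% and 5 over both against 55.4%, and adding the block then gave 3 against 33.0% and 5 against 60.3%. These shares were near or below those of all genes, so the genes were not called more often than the table as a whole. In *D/F* the unpaired fit carried the spread between mice, which was wide: the SD of log2(TPM + 1) over DMSO-treated mice was 1.24 for *Chac1* in *D/F* and 0.12 in *T/F*, whereas the SD of the mouse-by-mouse log2 ratios was 0.41 and 0.05. The median log2 fold change of the 10 genes was 0.26 in *D/F*, 0.07 in *T/F* and 0.16 over both, beside 0.06, 0.07 and 0.07 for all genes tested. With 3 libraries against 3, an exact permutation test cannot go below a p of 0.1, and with 6 paired mice it cannot go below 0.03125.

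*Xbp1* (chr11:5520659-5525893, plus strand, GRCm38) encodes the transcription factor that IRE1 activates by splicing, and it showed the deepest fall of the 10 genes. In *D/F* cells it was 393, 154 and 315 TPM in DMSO replicates 1 to 3 and 167, 75.3 and 125 TPM with CCS1477. The *T/F* values were 249, 278 and 227 TPM in DMSO and 137, 148 and 119 TPM with CCS1477. The *T/F* groups did not overlap, whereas in *D/F* the DMSO level of replicate 2 lay below the CCS1477 level of replicate 1. *Xbp1* changed by -0.90 on the log2 scale in *T/F* (standard error 0.12, adjusted p = 0.00231, limma). The *D/F* change of -1.19 (standard error 0.43) did not pass unpaired (adjusted p = 0.123, limma), but passed with the mouse as a block (adjusted p = 0.00558) and without replicate 2 (-1.28, adjusted p = 0.0260). Over both genotypes it was -1.04 (adjusted p = 0.00385, limma), and the exact paired permutation test over 6 mice gave p = 0.03125, the smallest possible.

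*Herpud1* (chr8:94386438-94395377, plus strand) encodes an ER membrane protein of the degradation complex that removes misfolded proteins. It was 136, 98.8 and 119 TPM in *D/F* DMSO replicates 1 to 3 and 68.7, 75.8 and 80.4 TPM with CCS1477. *T/F* cells had 104, 110.0 and 121 TPM in DMSO and 59.0, 58.9 and 67.4 TPM with CCS1477. Every CCS1477 library was below every DMSO library in each genotype, a pattern held by 16.7% of genes for *D/F* and 22.6% for *T/F*. The *D/F* change was -0.64 on the log2 scale with a standard error of 0.17 (adjusted p = 0.0623, limma), and it passed with the mouse as a block (adjusted p = 0.0338) and without *D/F* replicate 2 (adjusted p = 0.0323). In *T/F* the change was -0.85 with a standard error of 0.09 (adjusted p = 0.00134, limma), and it was -0.74 over both genotypes (adjusted p = 9.18e-05, limma). A gene on the opposite strand, *Gm15890*, overlaps *Herpud1*, and since the strand setting of the quantification was not stated, their reads may not be fully separated.

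*Herpud1* and *Chac1*, a glutathione-degrading enzyme gene and ATF4 target, are shown together because the same 9 letters occur in both promoters although their RNA moved in opposite directions. Sequences are RefSeq windows on GRCm38.p6, 5′ to 3′ on the plus strand, with motif matches in capitals. In *Chac1* (chr2:119351018-119351086) the capitals mark a match to the C/EBP-ATF response element, the composite site read by ATF4 with a C/EBP partner, searched as TGATGNAAN on both strands and found here on the minus strand. In *Herpud1* (chr8:94386286-94386417) the first capitals mark the same element and the second a match to the ER stress response element II, searched as ATTGG and CCACG with 1 base between them.
Chac1: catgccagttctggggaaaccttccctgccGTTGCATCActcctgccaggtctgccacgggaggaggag
Herpud1: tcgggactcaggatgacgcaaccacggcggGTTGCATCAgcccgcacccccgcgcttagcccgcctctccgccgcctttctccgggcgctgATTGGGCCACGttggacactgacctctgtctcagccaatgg
The element TGATGNAAN occurred in 3.95% of 32851 windows and in 4 of the 9 members with a window (*Asns*, *Chac1*, *Herpud1* and *Trib3*), while the ER stress response element II occurred in 0.0365% of windows and in *Herpud1* alone among the 9. The ER stress response element, searched as CCAAT and CCACG with 9 bases between them, occurred in 0.119% of windows, and the unfolded protein response element TGACGTGG in 0.676%, each in 0 of the 9. The cyclic AMP response element TGACGTCA, which shares its first 6 letters with TGACGTGG, occurred in 1.79% of windows and in *Ppp1r15a* among the 9. No motif overlapped another in the stretches shown. These are matches of letters within 250 bases before to 50 bases after a start site, and binding was not measured. The background is a share of windows, whereas the member counts are of genes chosen by name for these responses. The 2 are therefore not directly comparable.

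*Atf6* encodes the membrane-bound sensor and transcription factor of the third branch, and its level was nearly flat. It was 31.3, 22.9 and 28.9 TPM in *D/F* DMSO replicates 1 to 3 and 27.9, 31.3 and 28.1 TPM with CCS1477, and 31.1, 29.3 and 33.8 TPM against 28.1, 27.3 and 31.7 TPM in *T/F*. The groups overlapped in each genotype. Over both genotypes *Atf6* changed by -0.02 on the log2 scale, with a 95% interval from -0.22 to 0.18, and *D/F* replicate 2 was the 1 mouse of 6 with a higher level under CCS1477.

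*Atf4*, the central factor of the integrated stress response, showed no direction shared by the mice. It was 471, 150 and 355 TPM in *D/F* DMSO replicates 1 to 3 and 449, 181 and 417 TPM with CCS1477. *T/F* cells had 358, 346 and 278 TPM in DMSO and 314, 315 and 263 TPM with CCS1477. Replicates 2 and 3 of *D/F* were higher and the other 4 mice lower, and treatment groups overlapped in both genotypes. Log2 fold changes were 0.14 for *D/F*, -0.13 for *T/F* and 0.00 over both, where the 95% interval ran from -0.62 to 0.63 unpaired and from -0.18 to 0.19 with the mouse as a block. On this scale the unpaired fit, which carries the spread between mice, leaves room for a change of up to 0.63 in either direction. The paired fit leaves room for up to 0.19.

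*Atf5*, an ATF4-related factor that is also tied to the mitochondrial stress response, followed *Atf4* from mouse to mouse. In *D/F* it was 96.4, 28.9 and 75.1 TPM in DMSO replicates 1 to 3 and 102, 36.5 and 84.3 TPM with CCS1477. The *T/F* values were 72.1, 62.2 and 47.5 TPM in DMSO and 72.4, 69.0 and 50.4 TPM with CCS1477. Each mouse was slightly higher with CCS1477, yet the groups overlapped. Over both genotypes the change was 0.13 (adjusted p = 0.756 unpaired and 0.0683 with the mouse as a block, limma), and the exact paired permutation test gave p = 0.03125. *Il4i1* and *Nup62* overlap *Atf5* on the opposite strand, which limits how surely its reads were assigned.

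*Ddit3* encodes CHOP, the factor that links prolonged stress to cell death. It was 32.7, 22.1 and 27.4 TPM in *D/F* DMSO replicates 1 to 3 and 33.4, 51.2 and 34.1 TPM with CCS1477. *T/F* cells had 23.7, 26.1 and 22.2 TPM in DMSO and 29.8, 25.3 and 30.4 TPM with CCS1477. In *D/F* every CCS1477 library was above every DMSO library, which held for 19.9% of genes, and most of the *D/F* difference came from replicate 2, the highest of all 12 libraries. The log2 fold change over both genotypes was 0.37 (standard error 0.13, adjusted p = 0.0377, limma). This missed the threshold with the mouse as a block (adjusted p = 0.0715), was 0.21 without *D/F* replicate 2 (adjusted p = 0.0425), and the exact paired permutation test gave p = 0.0938 with 5 of 6 mice higher. A second annotated gene of the same name lies on the same strand, and *Mars* and *Gm4189* overlap on the other, so the *Ddit3* values are uncertain in this respect.

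*Chac1* (chr2:119351229-119354381, plus strand), whose promoter stretch is printed with that of *Herpud1*, rose the most of the 10 genes. In *D/F* it was 29.6, 4.52 and 14.3 TPM in DMSO replicates 1 to 3 and 53.1, 10.4 and 45.7 TPM with CCS1477. The *T/F* values were 15.0, 14.0 and 12.5 TPM in DMSO and 26.5, 23.4 and 22.4 TPM with CCS1477. The *T/F* groups did not overlap, with all CCS1477 libraries above, as for 33.5% of genes, whereas in *D/F* the spread between mice exceeded the change within them. *T/F* cells showed a rise of 0.76 on the log2 scale (standard error 0.10, adjusted p = 0.00239, limma). The *D/F* change was 1.16 with a standard error of 0.81 (adjusted p = 0.382, limma), and it passed with the mouse as a block (adjusted p = 0.0146). Over both genotypes it was 0.96, with an adjusted p of 0.0946 unpaired, 0.000467 with the mouse as a block and 0.00180 without *D/F* replicate 2 (limma).

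*Trib3* encodes a pseudokinase that is induced by ATF4 and CHOP and restrains them. In *D/F* it was 32.0, 4.91 and 14.6 TPM in DMSO replicates 1 to 3 and 37.3, 8.65 and 31.5 TPM with CCS1477. *T/F* cells had 16.4, 19.9 and 10.3 TPM in DMSO and 22.4, 23.5 and 19.1 TPM with CCS1477. Every mouse was higher with CCS1477, by ratios of 1.17 to 2.16, and the groups overlapped in both genotypes. Log2 fold changes were 0.50 for *T/F* (adjusted p = 0.138 unpaired and 0.0440 with the mouse as a block, limma), 0.66 for *D/F* (0.606 and 0.0545) and 0.58 over both (0.292 and 0.00538).

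*Asns* encodes asparagine synthetase, which makes asparagine from aspartate and glutamine. In *D/F* it was 122, 42.8 and 99.5 TPM in DMSO replicates 1 to 3 and 140.0, 48.1 and 156 TPM with CCS1477. The *T/F* values were 123, 94.0 and 97.8 TPM in DMSO and 134, 108 and 119 TPM with CCS1477. All 6 mice were higher, 5 of them by ratios of 1.09 to 1.22 and *D/F* replicate 3 by 1.57, and the groups overlapped. Over both genotypes *Asns* changed by 0.27 (adjusted p = 0.514 unpaired, 0.0193 with the mouse as a block and 0.0434 without *D/F* replicate 2, limma). For *T/F* alone the change was 0.20 (adjusted p = 0.278 unpaired and 0.0484 with the block).

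*Ppp1r15a* encodes GADD34, the phosphatase subunit that reverses eIF2 phosphorylation and so ends the response, and it was the least abundant of the 10. In *D/F* it was 12.1, 13.5 and 10.4 TPM in DMSO replicates 1 to 3 and 15.8, 18.9 and 11.7 TPM with CCS1477, and in *T/F* it was 7.52, 11.0 and 10.1 TPM against 8.33, 10.8 and 10.6 TPM. The groups overlapped in both genotypes. Over both genotypes the change was 0.19 (adjusted p = 0.275 unpaired and 0.0576 with the mouse as a block, limma), with 5 of 6 mice higher. *Tulp2* overlaps it on the opposite strand.

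**Figure D2:**
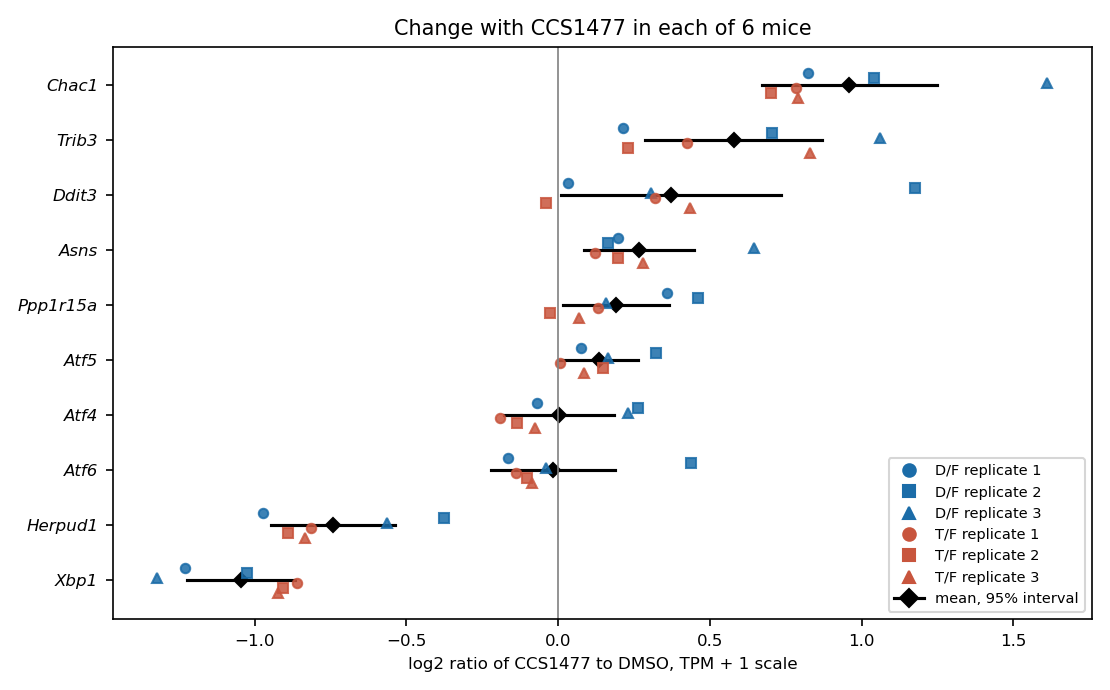
Log2 ratio of CCS1477 to DMSO within each mouse, on the TPM + 1 scale (x axis), for the 10 genes (y axis). Symbols are the 3 *D/F* mice (blue) and 3 *T/F* mice (red), and black diamonds with lines are the mean and its 95% interval from the fit with the mouse as a block. All 6 *Chac1* ratios lie between 0.70 and 1.61 and all 6 *Xbp1* ratios between -1.32 and -0.86, while *Atf4* and *Atf6* scatter about 0.

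The response of *D/F* cells to 4 μM and of *T/F* cells to 2 μM was compared in 1 fit of 4 groups, which asks whether the response differed. None of the 10 genes passed, a count of 0, and neither did any other gene (0% of 15583 in limma, with 659 genes, and 0 of the 10, at an unadjusted p under 0.05). With the mouse as a block the count that passed was again 0. In that fit the *T/F* minus *D/F* difference of the log2 fold change was 0.29 for *Xbp1* (95% interval 0.04 to 0.55, adjusted p = 0.296, limma), an interval that left out 0 before adjustment for the number of genes. It was -0.40 for *Chac1* (95% interval -0.91 to 0.11, adjusted p = 0.431) and -0.21 for *Herpud1* (95% interval -0.61 to 0.19, adjusted p = 0.597). For 9 of the 10 genes this difference was below 0, with a median of -0.20 beside 0.02 for all genes tested. The share of all genes below 0 was not counted. For *Ddit3*, *Trib3* and *Asns* its sign turned when 1 mouse was left out. These intervals do not show that the genotypes respond alike.

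Between the genotypes without the drug, 0 of the 10 genes passed (0.0328% of all genes, 5 of 15265, did). The *T/F* minus *D/F* log2 difference in DMSO ranged from -0.31 for *Ppp1r15a* to 0.37 for *Asns*, and the 95% intervals were wide, from -0.58 to 1.32 for *Asns* and from -0.86 to 1.16 for *Atf4*. With CCS1477 also 0 of the 10 passed (0.0329% of all genes did). The largest difference there was in *Ppp1r15a*, at -0.58 (95% interval -1.05 to -0.10, adjusted p = 0.381, limma). At an unadjusted p under 0.05 there were 939 genes in DMSO, 0 of the 10 among them, and 1643 with CCS1477, of which *Ppp1r15a* was 1.

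Levels were compared across the 12 libraries in sets of genes picked by hand, not found by clustering. *Atf4*, *Atf5*, *Trib3*, *Chac1* and *Asns* had Pearson's r of 0.817 to 0.975 over their 10 pairs on log2(TPM + 1), and *Xbp1* with *Herpud1* had 0.779. These points share mice, treatments and library composition, and the first set leaned on *D/F* replicate 2: without its pair of libraries the range over the 10 pairs was 0.481 to 0.933, and *Xbp1* with *Herpud1* had 0.893. *Ddit3*, outside these sets, had r of 0.01 with *Atf4* over 12 libraries and 0.59 over the remaining 10. Over those 10 it had 0.865 with *Chac1*, 0.845 with *Trib3* and 0.736 with *Asns*, above some pairs inside the first set. Between the sets, r ran from -0.37 to 0.55 over 12 libraries and from -0.52 to 0.37 without *D/F* replicate 2. Over all 12 libraries, *D/F* replicate 2 included, the genes most like *Atf4* were *Hdlbp* (r = 0.978), *Atf5* (0.975) and *Chchd10* (0.973). Those most like *Asns* were *Mthfd2* (0.972), *Acp1* (0.971) and *Sars* (0.966), those most like *Chac1* were *Tspan5* (0.977), *Pik3cb* (0.970) and *Bub1* (0.956), and those most like *Xbp1* were *Tarm1* (0.974), *Slc35c1* (0.974) and *Tmem97* (0.972).

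**Figure D3:**
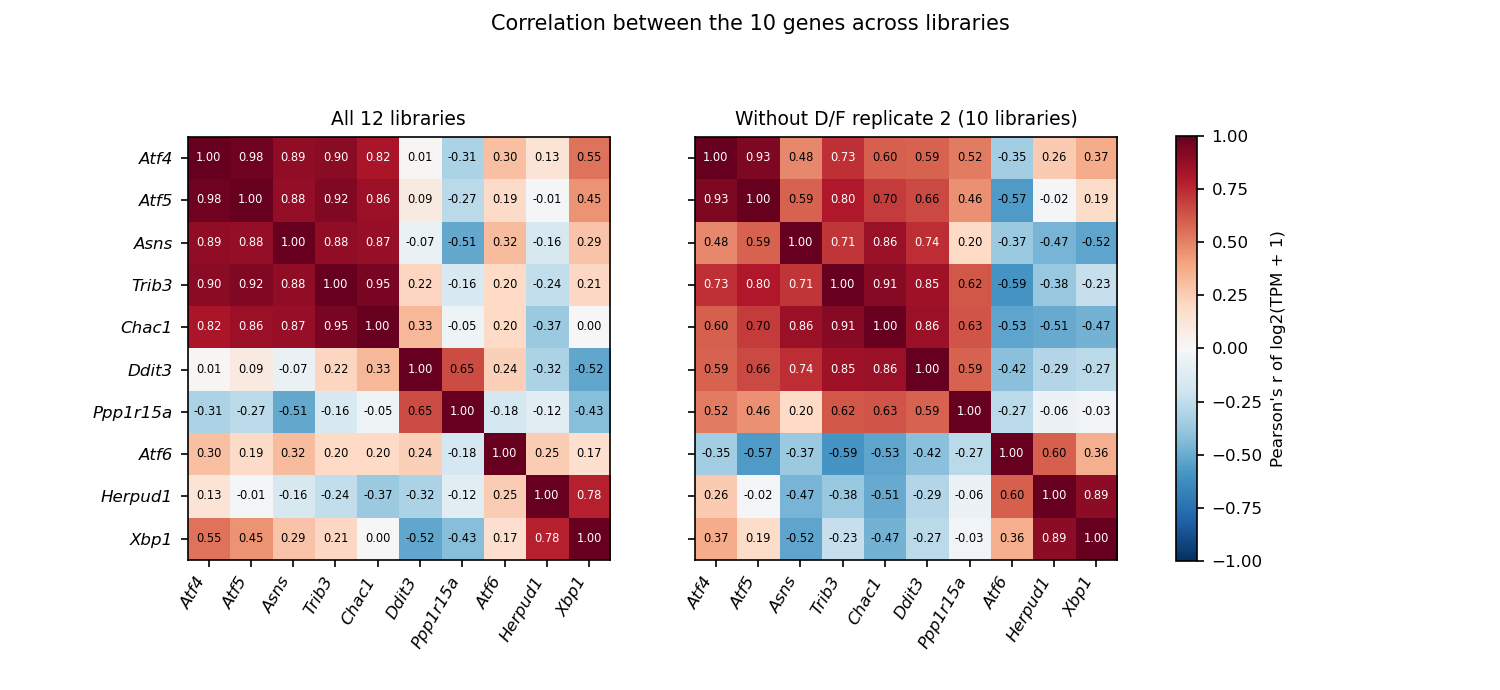
Pearson's r of log2(TPM + 1) between each pair of the 10 genes (both axes), over 12 libraries on the left and over the 10 libraries without *D/F* replicate 2 on the right, with red for positive and blue for negative r. *Atf4*, *Atf5*, *Asns*, *Trib3* and *Chac1*, placed side by side by hand, have r of at least 0.817 on the left. On the right this loosens to as low as 0.481, while *Ddit3* reaches 0.865 with *Chac1*.

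Other genes of these pathways were counted from 7 lists, in the fit over both genotypes, where 25.8% of all genes passed as higher and 19.6% as lower (34.5% and 25.9% with the mouse as a block, 32.6% and 22.8% without *D/F* replicate 2). Among 16 stress sensors and eIF2 kinases, 6 rose and 2 fell (median log2 fold change 0.12, all genes 0.07), and 7 rose and 2 fell with the mouse as a block. *Mbtps1*, the protease that cuts ATF6, rose from 51.0 to 78.2 TPM among *D/F* means and 50.5 to 69.3 TPM among *T/F* means (log2 0.53, adjusted p = 0.000275, limma), and the ER-membrane factor *Creb3* rose by 0.81 on the log2 scale. *Oma1*, the mitochondrial protease that signals to the eIF2 kinase HRI, rose by 0.52. *Eif2s1*, the eIF2 alpha subunit itself, fell by 0.64, with *D/F* means of 87.6 and 52.2 TPM and *T/F* means of 91.3 and 63.5 TPM. Of 13 ATF4 and CHOP partners, 2 rose (*Cebpg*, 0.39, and *Nfe2l2*, 0.39) and 2 fell, among them the myeloid factor *Cebpa* at -1.20 (adjusted p = 1.02e-06, limma). With the block, or without *D/F* replicate 2, 5 of the 13 fell, and with *D/F* replicate 3, *T/F* replicate 2 or *T/F* replicate 3 left out 1 fell.

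The 49 ATF4 and CHOP targets tested, beside the members, did not move 1 way: 7 rose and 12 fell (median -0.23), and with each library rescaled to its median gene 5 rose and 14 fell. With the mouse as a block 11 rose and 23 fell, without *D/F* replicate 2 the counts were 9 and 22, and without any 1 *T/F* mouse they were 4 and 7. Without *D/F* replicate 3, 4 rose and 13 fell. Of 12 aminoacyl-tRNA synthetases, which charge tRNAs, 1 rose and 4 fell, including *Iars* at -0.74, and 9 fell with the block or without *D/F* replicate 2. Of 8 amino acid transporters 1 rose and 4 fell, including the arginine and lysine carrier *Slc7a1* at -1.13, and *Xpot*, the tRNA exporter, fell by 0.98. Of the 8 serine, proline and one-carbon enzymes, 0 rose and 1 fell in this limma fit (1 and 4 with the mouse as a block, 0 and 4 without *D/F* replicate 2), and at an unadjusted p under 0.05 the counts were 0 and 2. Both autophagy genes rose, *Map1lc3b* by 1.45 and the cargo receptor *Sqstm1* by 1.07, and of 4 BH3-only and death receptor genes 2 rose, among them the apoptosis gene *Bbc3* (0.62, adjusted p = 0.0420, limma), and 1 fell (0 without *D/F* replicate 2).

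Of 28 ER chaperones and folding enzymes, which help secreted proteins reach their shape, 0 rose and 6 fell in limma (median -0.31). Over all genes 25.8% passed as higher and 19.6% as lower, so the falls were near the share for lower. Of the 28, 4 had a log2 fold change above 0, where the median of all genes was 0.07. At an unadjusted p under 0.05 the counts were 0 higher and 11 lower. With the mouse as a block 18 fell and 1 rose, against 25.9% and 34.5% of all genes. Without *D/F* replicate 2 the number lower was 21, against 22.8%. With any other mouse left out 3 or 4 fell. *Fkbp11*, a secretory-pathway prolyl isomerase, fell by 1.70, with *D/F* means of 32.9 and 8.16 TPM and *T/F* means of 28.7 and 10.2 TPM. *Manf*, a secreted ER stress protein, fell by 0.77, and the co-chaperone *Dnajb9* fell by 0.64. Of 32 genes of ER translocation and secretory transport, 3 rose and 12 fell (median -0.29), against 4 and 23 with the mouse as a block and 3 and 23 without *D/F* replicate 2. With a *T/F* mouse left out 1 or 2 rose and 7 or 8 fell. After rescaling to the median gene 1 rose and 9 fell. Those that fell included the signal recognition particle subunit *Srp68* at -0.80, its receptor subunit *Srprb* at -0.72 and the cargo factor *Mcfd2* at -0.83. *Sec62*, a translocon subunit, rose by 0.34 and the coat protein gene *Copb1* by 0.22.

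Of 23 genes of ER-associated degradation, which exports misfolded proteins from the ER for destruction, 6 rose and 2 fell (median 0.00), and 9 rose and 6 fell with the mouse as a block, as also without *D/F* replicate 2. *Herpud2*, the paralog of *Herpud1*, rose by 0.50, with *D/F* means of 26.1 and 39.1 TPM and *T/F* means of 23.8 and 32.9 TPM, and *Edem3*, a mannosidase-like factor, and *Ube2j1*, a ubiquitin-conjugating enzyme, each rose by 0.44. *Selenos* fell by 0.82 and *Ube2g2* by 0.65. Of 13 genes of the mitochondrial unfolded protein response, 3 rose and 8 fell (median -0.51), and 3 rose and 9 fell with the mouse as a block. Among them were the chaperone *Hspa9* at -1.01, the proteases *Clpp* at -1.07 and *Htra2* at -1.20, and rises of 0.37 in *Clpx*, 0.22 in *Yme1l1* and 0.83 in *Spg7*. In *D/F* alone the unpaired fit passed few genes of any list, at most 1 up and 2 down, where 5.14% of all genes passed as higher and 6.51% as lower. With the block 6 of 28 ER chaperones and 9 of 32 translocation genes fell in *D/F*, against 18.0% of all genes, and 0 and 1 rose, against 21.4%. In *T/F* alone 16 of the chaperones and 20 of the translocation genes fell, against 17.6% of all genes, and 0 and 3 rose, against 25.8%. With the block these counts were 19 and 21 lower, against 22.9%, and 0 and 2 higher, against 31.2%.

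**Figure D4:**
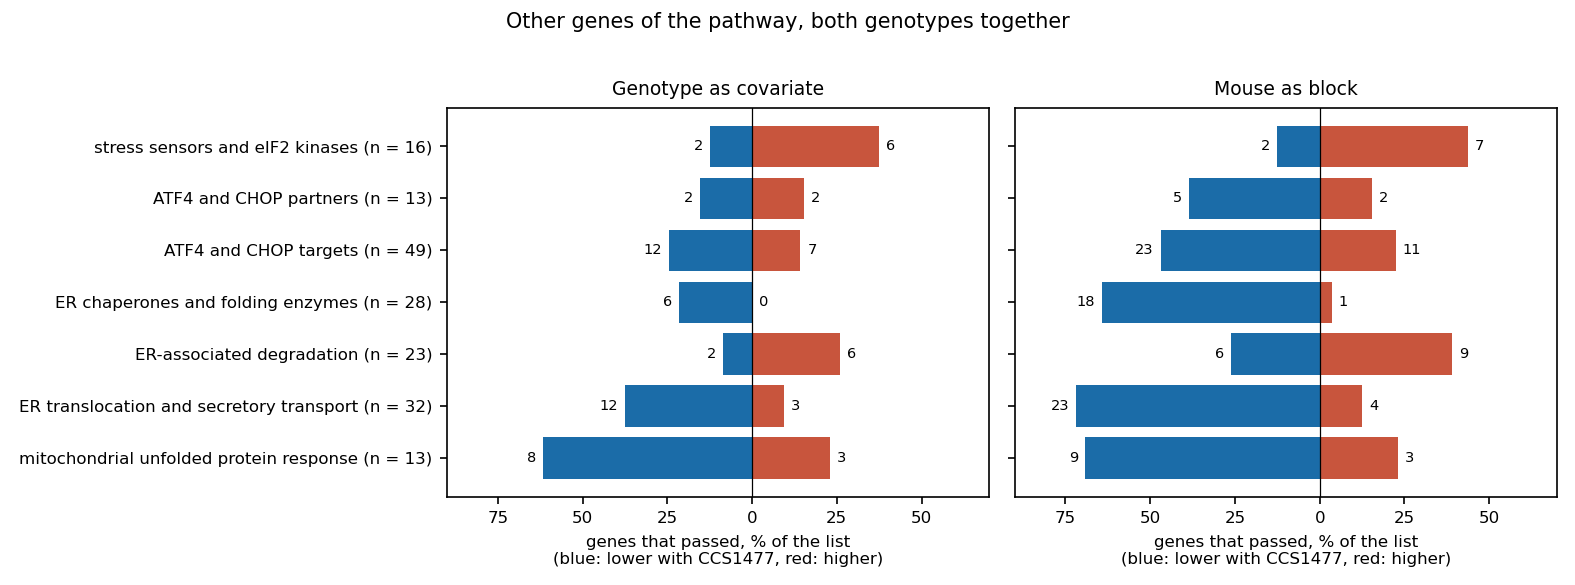
Share of the tested genes of each of 7 lists that passed, in % (x axis), lower with CCS1477 to the left in blue and higher to the right in red, with the counts beside the bars. The left panel is the fit with genotype as a covariate and the right panel the fit with the mouse as a block. Chaperones show 6 lower and 0 higher on the left and 18 lower and 1 higher on the right. Of all genes, 19.6% were lower and 25.8% higher on the left, and 25.9% and 34.5% on the right.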

How the data were processed

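RNA-seq of 12 libraries was used. The authors deposited gene-level TPM, which the labels credit to kallisto with genome build mm10 and the paper's methods to AltAnalyze. The kallisto version, annotation and strand setting are not given in the sources used here. TPM keep no depth, so only the spread between mice measures precision. The labels name both ribosomal RNA depletion and a stranded mRNA kit. The table had been limited to genes with higher values (lowest maximum 2.00 TPM), and libraries summed to 914204 to 931697 TPM.

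Symbols came from GENCODE annotation of GRCm38 for 15252 of 15651 identifiers. limma 3.58.1 (R 4.3.3) was run on log2(TPM + 1), eBayes without a trend, two-sided, after removing genes whose mean stayed under 1 TPM in all groups compared, and was tested on simulated data. CCS1477 was compared with DMSO per genotype, over both with genotype as a covariate, and between genotypes. The main fits had no mouse term, since the study states none, so they did not use the pairing described next. Fits with the mouse as a block were an alternative. Labels place CCS1477 and DMSO cells of 1 number in 1 mouse. The correlation of their deviations from group means was 0.340 to 0.655, against at most 0.132 for different mice, so the numbers pair the samples. Exact permutation tests used TPM of single genes, or sign flips of log2 ratios over mice.

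Alternatives were another pseudocount (0.1), filter (5 TPM, or none) or scaling (median gene, quantiles), a trend, the mouse as a block, 1 fit of 4 groups and leaving out each mouse. The block without *D/F* replicate 2 was added after seeing the data. The 10 genes, pathway lists and marker lists were chosen with earlier results of these data known. The subgroups of the ATF4 and CHOP targets, from synthetases to autophagy genes, were not planned. They were drawn by what the products do and cover only part of that list. List genes named are up to 3 higher and 3 lower, ranked by whichever genotype changed less, that passed over both, moved 1 way in all 6 mice and had a mean of 5 TPM. For likeness, the 3 genes with the highest Pearson's r were taken. Genes not named by these rules were chosen after their values were seen. Promoter windows are RefSeq's and motifs were searched on both strands. A list of markers of another cell type is not reported here.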

Additional observations from a re-analysis of the deposited data

Results flagged for a closer look

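Each of the 10 genes was examined in 3 sets of 6 mice (log2 ratio, level in DMSO and level with CCS1477) for a value far from the other 5, by Dixon's criterion, which chance meets in about 1 of 20 sets. Of 30 sets 5 met it. The log2 ratio of *Atf6* was 0.44 in *D/F* replicate 2, against -0.16 to -0.04 in the other 5 mice. The log2 ratio of *Chac1* was 1.61 in *D/F* replicate 3, against 0.70 to 1.04. That of *Asns* in the same mouse was 0.65, against 0.12 to 0.28. The log2(TPM + 1) of *Asns* in *D/F* replicate 2 was 5.45 in DMSO, against 6.57 to 6.95, and 5.62 with CCS1477, against 6.77 to 7.30. So 3 of the 5 belonged to *D/F* replicate 2, the mouse whose libraries stood apart across genes, and 2 to *D/F* replicate 3.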

How the results depend on the processing

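Of the 10 genes, 0 passed in *D/F*, and this became 1 with a filter at 5 TPM or with a trend (*Herpud1*), 2 in 1 fit of all 4 groups (*Herpud1* and *Xbp1*), and 3 with the mouse as a block (*Chac1*, *Herpud1*, *Xbp1*), also without replicate 2. With each *D/F* mouse left out it ranged from 0 to 2. It was 2 without replicate 2, and without replicate 1 or 3 no gene of the table passed. In *T/F* the 3 became 5 with the mouse as a block and 1 (*Herpud1*) in the fit of 4 groups, and were 3 with each mouse left out. Over both genotypes the 3 became 5 with the mouse as a block, 5 without *D/F* replicate 2 and 5 with both, and ranged from 2 to 5 over mice left out. *Ddit3* did not pass under rescaling, under quantile normalization, or without *D/F* replicate 3, *T/F* replicate 1 or *T/F* replicate 3. The 71 pathway genes that passed became 122 with the block. Counts of each pathway list with the block stand in the report, and calls of single pathway genes that the block changed are given only within such counts. The cause of these moves was not tested.

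Signs turned for several changes that had not passed. *Atf6* in *D/F* was -0.10 without replicate 2, with or without the block, and ranged from -0.10 to 0.20 over mice left out. In *T/F*, *Atf5* was -0.0012 and *Ppp1r15a* -0.016 after rescaling, and *Ppp1r15a* -0.030 after quantile normalization. Over both genotypes *Atf4* was -0.061 after rescaling and -0.049 without *D/F* replicate 2 with or without the block, with a range from -0.049 to 0.042 over mice left out, and that of *Atf6* ran from -0.11 to 0.014. For the difference between responses, which was -0.27 for *Ddit3*, -0.17 for *Trib3* and -0.14 for *Asns* with all mice, *Ddit3* was 0.069 without *D/F* replicate 2 with or without the block, and over mice left out it ranged from -0.50 to 0.069, *Trib3* from -0.39 to 0.035 and *Asns* from -0.22 to 0.018. TPM keep no read counts, so low values such as those of *Chac1* in *D/F* replicate 2 carry an unknown counting error.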

Other observations

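Further members had these closest genes by Pearson's r over the 12 libraries, given as a description, since the libraries share mice and treatments. The r values were not computed without *D/F* replicate 2, and how far they lean on it was not tested. *Trib3* was closest to *Glyr1* (0.962), *Bub1* (0.959) and *Tspan5* (0.956). The last 2 were also among the 3 closest to *Chac1*. *Herpud1* was closest to *Plcxd2* (0.968), *Rgcc* (0.963) and *Prdx6* (0.961), and *Atf6*, with a nearly flat level, to *Siah2* (0.811), *Slc7a3* (0.743) and *Slc1a4* (0.723). *Atf5* was closest to *Atf4* (0.975), *Chchd10* (0.960) and *Hdlbp* (0.958), the genes that also led for *Atf4*. *Ddit3* was closest to an unnamed gene (ENSMUSG00000083360, 0.973), *Inpp5a* (0.965) and *Gnrh1* (0.945), and *Ppp1r15a* to *4930526A20Rik* (0.943), *Ncald* (0.939) and *Trim43b* (0.935).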
